A study of Mus musculus with 3 samples.

Results

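The heart of mice carrying Prkag2-p.R299Q, a point mutation in a subunit of an energy-sensing kinase, was compared with the heart of wild-type mice (WT). The material was all cells released from the heart of male C57/B6J mice, freed with collagenase, passed through a 70 µm strainer, captured in droplets and sequenced at the 3′ ends of their transcripts, with a unique molecular identifier (UMI) marking each captured transcript. All 7951 barcodes of the Prkag2-p.R299Q library were set against all 18033 barcodes of the WT library, which is 25984 of the 38646 barcodes of the series. The rest belong to another genotype, Myh6-R404Q, which is used below only to show where a level stood in a further heart. Each genotype is represented by 1 library: differences have no replicate check, genotypes were not compared by a test, and every interval is a 95% interval that covers counting error only. No label gives the age of the mice, the zygosity of the mutation or how many animals went into a library.

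AMP-activated protein kinase (AMPK), whose gamma 2 subunit Prkag2 encodes, is a complex of a catalytic alpha, a scaffolding beta and a regulatory gamma subunit. The gamma subunit binds adenine nucleotides and lets the kinase respond to a falling energy charge by promoting fuel uptake and oxidation and by restraining biosynthesis. Dominant mutations of this subunit are known in people with thick heart muscle, ventricular pre-excitation and glycogen stored in heart muscle cells. Natriuretic peptides, made by Nppa and Nppb, are secreted by heart muscle under load.

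To show the site of the mutation, the coding sequence of the exon that holds the codon of arginine R299 in Prkag2 is given from the reference genome. In the annotated transcript Prkag2-201, which encodes 566 residues, this codon reads CGT and lies in exon 7 of 16, at chr5:24880684-24880765 on the minus strand of GRCm38. The capitals mark the codon, at 24880724 to 24880726, and the sequence is the reference one, not one read from the mutant mice.
Prkag2 exon 7: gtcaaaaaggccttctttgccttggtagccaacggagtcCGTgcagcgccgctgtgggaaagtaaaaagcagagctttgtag
A change of this codon does not alter a count of 3′ transcript ends, so the level of Prkag2 does not check the genotype labels.

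The Prkag2-p.R299Q library was deeper per barcode than the WT library, with 31385005 UMIs and a median of 2537 per barcode against 41047991 UMIs and a median of 1559. The 2 libraries shared 28 barcode sequences, of which 0 had equal counts. The matrix deposited for Myh6-R404Q also holds copies of both libraries, and its remaining 12662 barcodes were taken as Myh6-R404Q by elimination. Shares of mitochondrial and nuclear RNA differed: mitochondrial genes took 1.40% of UMIs in Prkag2-p.R299Q and 2.03% in WT, and the nuclear RNA Malat1 stood at a CPM (its UMIs per 1e+06 UMIs) of 60643 against 44181. Whether RNA quality or cell makeup had a part in this was not tested. Malat1 was 1.13 to 1.39 times the WT level in each of the 8 cell classes compared below. Barcodes called doublets, 1171 in Prkag2-p.R299Q and 3202 in WT, were left out of classes but not of the whole heart values. They were 14.7% and 17.8% of barcodes, where 6.36% and 14.4% were expected, so the calls exceeded the expected rate further in Prkag2-p.R299Q. Cells were clustered, and clusters were called X-like from marker genes, all 20 of them receiving a name; the names were rebuilt from these data and may differ from the study's own. In each compared class all fixed markers had at least 1 UMI in both libraries, which is a weak check of the names. The exception was endocardial-like cells of Prkag2-p.R299Q, with 9 of 10. The summed markers of each compared class stood highest in that class. The closest were endothelial-like cells, at 11542 CPM against 7743 in the next class in WT and 11371 against 7401 in Prkag2-p.R299Q.

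The first comparison asked how the makeup of the heart differed. Prkag2-p.R299Q held larger shares of mesothelial-like cells, the covering of the heart's surface, and smaller shares of blood vessel, lymphatic, smooth muscle and Schwann-like cells than WT. Endothelial-like cells were 15.3% of 6780 kept cells (14.5 to 16.2) against 22.8% of 14831 in WT (22.1 to 23.5), a ratio of 0.672 (0.631 to 0.716). Lymphatic endothelial-like cells were 4.06% against 5.79%, a ratio of 0.700 (0.6132 to 0.7997). Mesothelial-like cells were 8.39% against 5.41%, a ratio of 1.55 (1.40 to 1.72).

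Smooth muscle-like cells, the contractile wall of arteries, numbered 19 in Prkag2-p.R299Q and 200 in WT, which is 0.280% against 1.35% and a ratio of 0.208 (0.130 to 0.332). The endothelial-like cluster led by Gja5, a gap junction gene of arteries, and Sox17 (cluster 13) held 34 cells (0.502%) against 202 (1.36%). Schwann-like cells, glia that sheath nerves, were 9 against 90. Pericyte-like cells (4.73% against 4.74%) and endocardial-like cells (3.24% against 3.57%, a ratio of 0.910, 0.779 to 1.06) had intervals of the ratio that include 1. Macrophage-like, fibroblast-like and cardiomyocyte-like cells were 1.17, 1.12 and 1.17 times the WT share. The cardiomyocyte-like ratio turned to the other side of WT, at a log2 ratio of -0.03, when barcodes under 1000 UMIs were left out. The same floor moved the endothelial-like log2 ratio from -0.57 to -0.31 and the mesothelial-like one from 0.63 to 0.33. The lymphatic endothelial-like one stayed near its value, at -0.49 against -0.51. All shares depend on which cells the collagenase digest released and on depth, which differed between the libraries; their part in the shares was not tested.

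**Figure D1:**
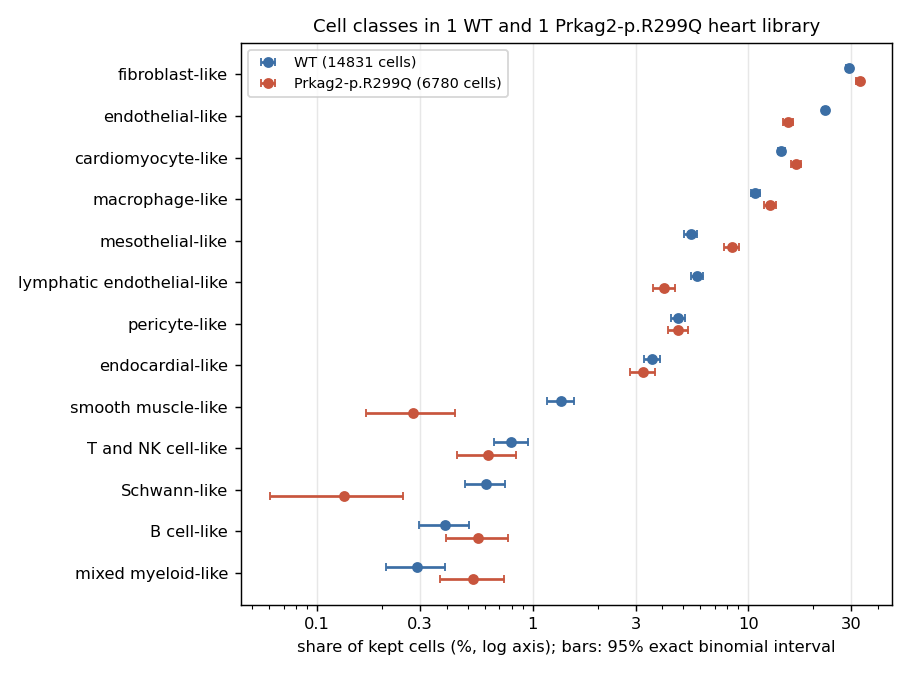
Share of kept cells in each class (x axis, percent, log scale) in the WT and the Prkag2-p.R299Q library; bars are exact binomial 95% intervals. Smooth muscle-like and Schwann-like cells sit furthest apart, at 0.208 and 0.219 times the WT share, and mesothelial-like cells are the highest of the larger classes, at 1.55 times.

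In the clustering used here, fibroblast-like cells differed in composition as well as in share. A cluster led by Bmper, Col8a1 and Gfra1 (cluster 1) held 63.9% of the fibroblast-like cells in Prkag2-p.R299Q against 29.2% in WT. A cluster led by Dclk1, Col6a3, Gpm6b and C7 (cluster 4) held 13.6% against 49.4%. The other clusters, 10 (led by Shisa9 and Fbn2) and 11 (led by Pi16, a marker of adventitial fibroblasts, and Has2, a hyaluronan synthase), held 9.65% and 12.9% of the class in Prkag2-p.R299Q against 11.7% and 9.69% in WT. In cluster 4 the median depth was 1195 UMIs in Prkag2-p.R299Q and 1230 in WT, and in cluster 1 it was 2653 and 1996, so the clusters differ in depth as well as in genes. The split depended on the doublet step. With doublets removed only at their expected rate, no fibroblast-like cluster was led by Dclk1. The cluster led by Bmper and Rgs17 then held 1187 Prkag2-p.R299Q and 2745 WT cells. Those led by Gfpt2 and Has2os, and by Sntg1 and Shisa9, held 870 and 1233, and 243 and 438. Fibroblast-like values below average over the unlike mixtures of the clustering used here.

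The second comparison set all barcodes against all barcodes. Of 10774 genes measured, meaning at 10 CPM or more in either library, 217 (2.01%) stood 1.5 times or more above WT in Prkag2-p.R299Q and 254 (2.36%) as far below it, and the median log2 ratio, taken with 1 CPM added to each level here and below, was -0.01. In such whole heart values fewer cells of a type and less RNA per cell cannot be told apart. Differences of that size were thus rare in the heart as a whole. With barcodes called doublets removed the counts were 249 and 303. When the classes of these kept cells were also weighted by their shares of UMIs in WT, the WT makeup below, the counts were 168 and 129.

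By the size rule (at least 50 CPM, 2-fold and an interval beyond 1.5-fold) 5 genes were higher. Nppa (ENSMUSG00000041616, chr4:148000722-148002079, plus strand), the atrial natriuretic peptide, was at 70.8 CPM in Prkag2-p.R299Q and 18.2 in WT, 3.88 times (3.57 to 4.22), and at 17.6 in Myh6-R404Q. C3 (ENSMUSG00000024164, chr17:57203970-57228136, minus strand), the central complement protein, was at 437 CPM against 164, 2.66 times (2.59 to 2.74). The 3 others, like C3, had their largest share of WT UMIs in mesothelial-like cells: Msln (mesothelin) at 51.9 against 22.6 CPM, Rarres2 (chemerin) at 105 against 46.5 and Igfbp6 at 63.3 against 31.7. With the WT makeup their ratios were 1.86, 1.89 and 1.81, and those of C3 and Nppa 2.19 and 3.68. In Myh6-R404Q, C3 (472 CPM), Msln (79.8), Rarres2 (186) and Igfbp6 (102) also stood above WT.

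The 8 genes lower by the same rule had their largest share of WT UMIs in smooth muscle, endothelial, lymphatic or endocardial-like cells. Myh11, the smooth muscle myosin, was at 16.4 CPM against 78.1 in WT, 0.210 times (0.191 to 0.231), and at 24.1 in Myh6-R404Q. With barcodes called doublets removed its ratio was 0.134, with the makeup of WT it was 0.655, and smooth muscle-like cells held 83.7% of its UMIs in WT. The value with the WT makeup takes its smooth muscle-like part from 19 cells of Prkag2-p.R299Q. Dgkb (0.398 times), Acta2 (0.496), Sema3a (0.444) and Ccl21a (0.488), a chemokine of lymphatic vessels, moved towards 1 likewise, to 0.845, 0.666, 0.661 and 0.774. Ccdc85a (0.473), Galnt18 (0.484) and Vwf (0.495), the von Willebrand factor of vessel lining, stood at 0.695, 0.763 and 0.683 with the WT makeup.

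**Figure D2:**
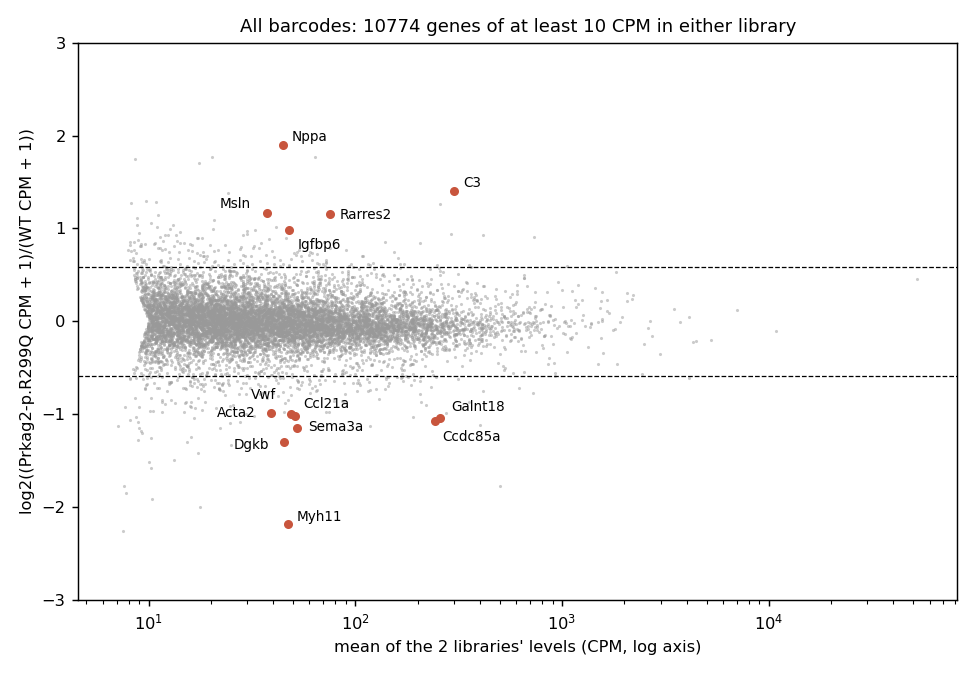
Log2 ratio of Prkag2-p.R299Q over WT (y axis) against the mean level of each measured gene (x axis, CPM, log scale), all barcodes summed; dashed lines mark 1.5-fold and red points the 13 genes of the size rule. Nppa and C3 lead the higher genes and Myh11 is the lowest of the red points at 0.210 times; unlabelled grey points beyond 2-fold include mitochondrial, hemoglobin and predicted genes, which the rule leaves out.

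AMPK itself was close to WT at the level of RNA. Prkag2 was at 127 CPM in Prkag2-p.R299Q, 134 in WT and 118 in Myh6-R404Q. The catalytic subunit Prkaa2 was at 134 CPM against 137, Prkaa1 at 30.4 against 30.9, and the other regulatory subunit Prkag1 at 67.4 against 69.1. The scaffold subunits were lower: Prkab1 at 10.8 against 13.9 CPM, 0.774 times, and Prkab2 at 40.8 against 52.0, 0.785 times (0.732 to 0.842). Stk11 (LKB1), the main kinase above AMPK, was at 50.2 against 55.5. None of the 12 measured members of the AMPK list passed 1.5-fold, and its median log2 ratio was -0.06 against -0.01 for all genes.

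Prkag2 transcripts were unevenly spread over the classes, in the same pattern in both hearts. The level in lymphatic endothelial-like cells was 861 CPM in Prkag2-p.R299Q and 738 in WT, and in macrophage-like cells 372 and 355. Cardiomyocyte-like cells had 69.6 CPM (621 UMIs) against 65.6 (605 UMIs), 1.06 times (0.947 to 1.19). Ratios ran from 0.826 in mesothelial-like to 1.17 in lymphatic endothelial-like cells in 7 classes, and pericyte-like cells, with 14 and 32 UMIs, were at 0.638 or, with doublets removed only at their expected rate, at 1.78.

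In cardiomyocyte-like cells the energy pathway comparison asked whether enzymes of glycogen and fuel use differed. Most did not reach 1.5-fold; in the glycogen and AMPK lists the exceptions were Phka1, Ppp1r3a and Prkab2, all lower in Prkag2-p.R299Q. Of 8830 genes measured in this class 269 (3.05%) stood 1.5 times or more above WT and 344 (3.9%) as far below it. With doublets removed only at their expected rate the counts were 577 and 155, so the balance of the 2 directions depends on that step. In that setting a cardiomyocyte-like cluster had Igfbp6, C3 and Rarres2 among its leading genes, so the class also differed in its cells. Phka1 (ENSMUSG00000034055, chrX:102513975-102644246, minus strand), the muscle alpha subunit of phosphorylase kinase, which activates glycogen breakdown, was at 172 CPM against 339, 0.508 times (0.478 to 0.540). In the other 7 classes its ratio lay between 0.760 and 1.02. Ppp1r3a, which targets protein phosphatase 1 to glycogen, was at 417 CPM against 627, 0.665 times (0.638 to 0.693), a ratio close to the threshold, which TMM scaling put at 0.682. Prkab2 was the only member of the AMPK list past 1.5-fold, at 36.2 CPM against 57.7, 0.627 times (0.545 to 0.722).

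These differences were as large within the main cardiomyocyte-like cluster (cluster 2, led by Mhrt and Rbm20): Phka1 was at 0.511, Ppp1r3a at 0.665 and Prkab2 at 0.626 times WT. In Myh6-R404Q whole hearts, Phka1 (115 CPM) and Ppp1r3a (133 CPM) also stood below WT (191 and 253 CPM), as in Prkag2-p.R299Q (126 and 181 CPM).

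Other enzymes that build and cut glycogen were nearer WT. Gys1, glycogen synthase, was at 87.7 CPM against 114, 0.772 times (0.703 to 0.848). The branching enzyme Gbe1 was at 225 against 220, Ugp2, which makes the glucose donor, at 354 against 401, and the phosphorylase Pygm at 191 against 199. Of 20 measured members of the glycogen list 0 were higher by 1.5-fold and 2 lower, Phka1 and Ppp1r3a, with a median log2 ratio of -0.10 against -0.04 for all genes of the class.

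Fuel selection genes showed a like picture of few members past the threshold. Pdk4, the kinase that shuts glucose carbon out of the mitochondrion, was at 16.9 CPM against 36.4 in cardiomyocyte-like cells, 0.464 times (0.381 to 0.564). It was the 1 member of 28 measured in the glycolysis list past 1.5-fold in either direction. Pdk4 was also at 0.142 to 0.403 times WT in the 7 other classes, on 2 to 70 UMIs in Prkag2-p.R299Q, and at 13.4 against 30.8 CPM in the whole heart. Foxo1, a factor that acts upstream of fasting genes, was at 74.3 against 114 CPM, 0.652 times, and at 0.735 times when doublets were removed only at their expected rate. The glucose transporter Slc2a4 (GLUT4) was at 65.9 against 57.6 CPM, hexokinase Hk2 at 437 against 403, and the fatty acid transporter Cd36 at 1122 against 1249. Of 27 members of the fatty acid oxidation list and 51 of the nuclear-encoded respiratory chain, 0 passed 1.5-fold, with medians of 0.07 and 0.09. The 13 mitochondrially encoded genes had a median of -0.45, and 4 were at least 1.5 times lower; they were lower in all 8 classes, with medians of -0.32 to -0.59.

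Several genes of muscle load were higher in cardiomyocyte-like cells. Nppa had 1087 UMIs (122 CPM) in Prkag2-p.R299Q and 217 (23.5 CPM) in WT, 5.18 times (4.47 to 6.02). Nppb, the brain natriuretic peptide, was at 100 CPM against 61.3, 1.63 times (1.47 to 1.82). Ankrd1, a stretch-responsive sarcomere protein, was at 517 against 317, 1.63 times (1.56 to 1.71), and skeletal alpha actin, Acta1, at 97.1 against 63.2, 1.54 times, or 1.33 times with doublets kept. These 4 were the members of the hypertrophy list past 1.5-fold, out of 15 measured, and 0 were lower. The list median was 0.23. In the main cluster, 2, only 1 of 15 was higher by 1.5-fold, 0 were lower and the median was 0.01. In the sarcomere list Tcap (telethonin, 499 against 306 CPM), Myom2 (myomesin, 242 against 150 CPM) and Acta1 were the 3 of 22 measured past 1.5-fold. The slow myosin Myh7 was at 1810 CPM against 1410, 1.28 times, and the fast myosin Myh6 at 14252 against 12866, 1.11 times.

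The promoters of Nppa and Nppb, neighbours on chromosome 4, are shown because both were higher; each runs from 250 bases before to 50 after the gene's start (RefSeq, GRCm38.p6, plus strand). Nppa lies at chr4:148000472-148000771 and Nppb at chr4:147985650-147985949. Capitals mark GATAA, the core of sites for GATA factors, and CATTCC, the M-CAT element, on either strand.
Nppa promoter: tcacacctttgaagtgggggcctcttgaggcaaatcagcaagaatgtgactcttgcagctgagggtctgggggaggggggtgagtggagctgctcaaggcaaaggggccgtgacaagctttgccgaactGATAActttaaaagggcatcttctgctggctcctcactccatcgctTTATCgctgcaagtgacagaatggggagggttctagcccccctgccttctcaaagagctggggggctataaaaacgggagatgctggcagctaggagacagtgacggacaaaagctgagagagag
Nppb promoter: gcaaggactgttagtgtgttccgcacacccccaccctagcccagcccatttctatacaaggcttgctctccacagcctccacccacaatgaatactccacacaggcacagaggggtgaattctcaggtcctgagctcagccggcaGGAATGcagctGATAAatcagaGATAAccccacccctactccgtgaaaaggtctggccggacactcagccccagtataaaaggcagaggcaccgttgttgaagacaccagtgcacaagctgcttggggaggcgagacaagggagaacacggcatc
Both hold 2 matches to GATAA, which 25.4% of 32851 promoters of this length hold at least once, and Nppb holds 1 match to CATTCC, found in 14.7%. The matches do not overlap, and a match is a description of letters only.

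Nppa UMIs were concentrated in few cells in both libraries. In Prkag2-p.R299Q 19 of 1128 cardiomyocyte-like cells had 10 or more Nppa UMIs, against 3 of 2112 in WT, and the highest cell had 164 and 56. The 1% of cells richest in Nppa, 12 and 22 cells, held 68.1% and 73.3% of its UMIs. Without them the level was 39.3 CPM in Prkag2-p.R299Q and 6.37 in WT, so it still stood higher in Prkag2-p.R299Q. Macrophage-like cells, which should lack Nppa, stood at 32.2 and 2.67 CPM after the same step. There it took 9 and 17 cells, which held 21.1% of 76 and 78.6% of 28 Nppa UMIs, so it cut the libraries unequally. In Prkag2-p.R299Q the level outside the richest cells was close to that of macrophage-like cells. In WT the levels left after this step rest on 58 UMIs in cardiomyocyte-like and 6 in macrophage-like cells. After thinning to 1000 UMIs per cell, 5.41% of cardiomyocyte-like cells in Prkag2-p.R299Q (4.10 to 6.99) and 1.60% in WT (1.08 to 2.28) had an Nppa UMI; in macrophage-like cells it was 4.15% and 1.08%. The intervals of the 2 classes overlapped in each library, which cannot show that their shares are equal. Thinning left out the cells under 1000 UMIs, 112 and 238 of the cardiomyocyte-like cells. Cluster 12, described below, has median depths of 1078.5 and 881.5 UMIs, near that floor. How much of these shares is RNA from other cells was not tested. The cardiomyocyte-like cells with 10 or more UMIs stood above every macrophage-like cell, the highest of which had 5 and 4 Nppa UMIs. Median depths were 6631.5 and 3698 UMIs in cardiomyocyte-like and 2112.5 and 1299.5 in macrophage-like cells, and without thinning the shares were 15.2% and 3.60%, and 8.04% and 1.44%.

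Markers of atrial muscle, which makes Nppa at rest, were examined beside it, in a list chosen after the data had been seen. Sln, Mybphl and Bmp10 had 0 UMIs in cardiomyocyte-like cells of both libraries, a count that allows up to 3 UMIs in each. The 11 atrial genes other than Nppa summed to 87.9 CPM in Prkag2-p.R299Q and 91.0 in WT, and of the 2 measured 0 passed 1.5-fold; the sum is mostly Tbx5, a factor also of ventricular muscle, at 62.3 CPM in both.

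The 2 cardiomyocyte-like clusters differed in how far these genes departed from WT. Cluster 2 held 898 and 1724 cells with median depths of 8038 and 4378.5 UMIs in Prkag2-p.R299Q and WT. Cluster 12, led by Ankrd23, Xirp2 and Ankrd1, held 230 and 388 cells with medians of 1078.5 and 881.5. In cluster 2 Nppa was at 62.7 CPM against 20.1, 3.12 times (2.63 to 3.72), Nppb at 1.47 times, Ankrd1 at 455 CPM against 303, Tcap at 1.62 times and Acta1 at 1.01 times (0.886 to 1.15). In cluster 12 Nppa was at 1688 CPM against 99.0, 17.1 times (12.4 to 24.1), Acta1 at 4.81 times (3.86 to 6.04), Ankrd1 at 3.56 times and Nppb at 3.06 times. The difference in Acta1 thus lay in cluster 12.

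Cluster 12 also differed as a whole. Myh6 was at 3.08 times WT there and Ttn at 2.46 times, while the nuclear RNAs Malat1 and Mhrt were at 0.488 and 0.299 times. The nuclear-encoded respiratory chain had a median log2 ratio of 1.11 and the fatty acid oxidation list one of 0.99, against -0.18 for all genes of the cluster. In cluster 2 the same lists had medians of -0.09 and -0.08, and Myh6 was at 1.02 times. The part of this shift from nuclear to cytoplasmic muscle RNA in the values of cluster 12 was not tested.

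**Figure D3:**
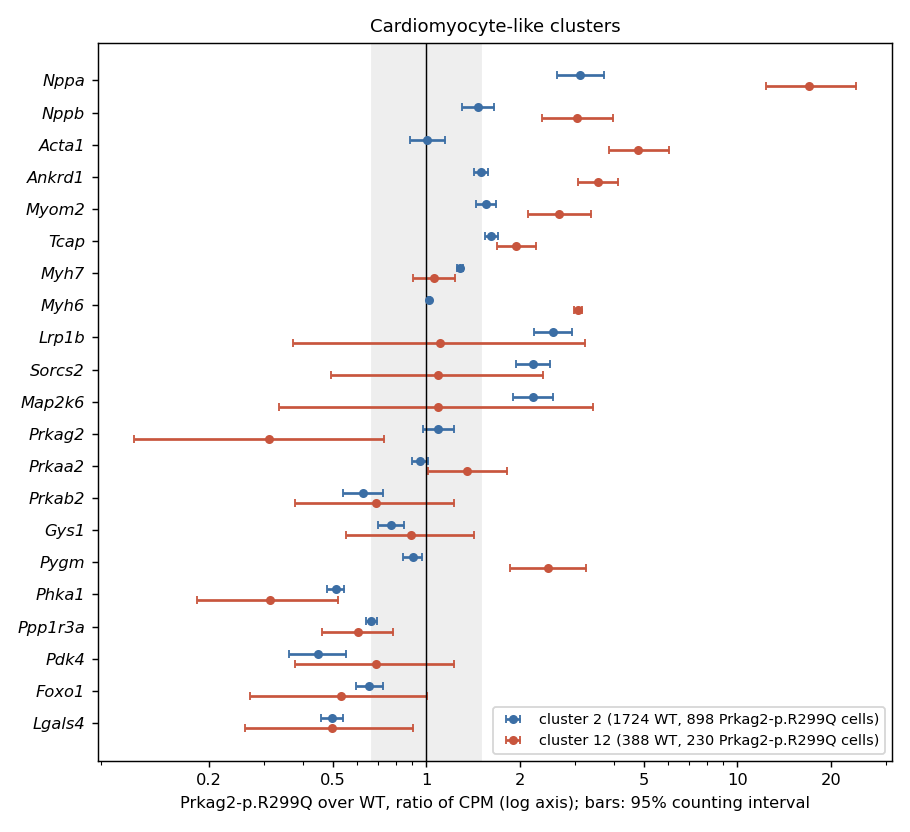
Ratio of CPM, Prkag2-p.R299Q over WT (x axis, log scale), for 21 genes (y axis) in both cardiomyocyte-like clusters; bars are 95% counting intervals and the grey band spans 1.5-fold either way. Nppa is higher in both clusters (3.12 and 17.1 times), Acta1 in cluster 12 alone, and Phka1, Ppp1r3a and Lgals4 are lower in both.

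Genes of calcium handling and conduction stayed within 1.5-fold of WT in cardiomyocyte-like cells. The calcium release channel Ryr2 was at 11352 CPM against 14445, 0.786 times, the calcium pump Atp2a2 at 1.01 times and its inhibitor Pln, phospholamban, at 1.14 times. The potassium channel Kcnd2 was at 1.04 times. Of 18 measured members of either list 0 passed the threshold in the class, with medians of 0.01 and 0.05. In cluster 12, 5 of 19 calcium members were higher and 7 lower, and 5 of 18 channel members higher and 8 lower. Other lists there also had many members past the threshold. Glucose uptake and glycolysis had 19 of 28 higher and 2 lower, and TGF-beta and BMP 2 of 22 higher and 9 lower. The share of all genes past 1.5-fold in cluster 12 was not counted, so these counts cannot be set against it. In the deeper cluster 2, 1 of 19 calcium members was higher and 0 lower, and 0 of 18 channel members passed the threshold.

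Beyond Nppa, the size rule named 4 genes higher and 1 lower in cardiomyocyte-like cells. Lrp1b, a large receptor of the LDL receptor family, was at 80.8 CPM against 32.0, 2.53 times (2.20 to 2.90). Sorcs2, a sorting receptor, was at 91.9 against 42.4, 2.17 times, D7Ertd443e at 91.3 against 41.7, 2.19 times, and Map2k6, a kinase that activates p38, at 64.4 against 29.6, 2.18 times. All 4 kept ratios of 2.20 to 2.56 in cluster 2 and had 7 to 16 UMIs per library in cluster 12. Lgals4, a galectin, was at 106 against 212 CPM (ratio 0.462 to 0.541), and at 0.498 times in each cluster.

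In mesothelial-like cells many complement and MHC class I genes were higher and many sarcomere genes lower. Of 10481 genes measured 1010 (9.64%) were higher by 1.5-fold or more and 738 (7.04%) lower. C3 was at 4190 CPM (7739 UMIs) against 1202 (1930 UMIs), 3.48 times (3.31 to 3.66). Of 15 measured members of the complement list 8 were higher and 1, C1qa, lower (9 and 23 UMIs, and 1.14 times WT with doublets kept), with a median log2 ratio of 0.90. They cover the classical pathway (C1ra 2.96 times, C1s1 1.87, C2 2.04, C4b 1.98), the alternative pathway (Cfb 2.11) and the regulators Serping1 (2.16) and Clu (2.06).

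After thinning to 1000 UMIs, 76.1% of mesothelial-like cells in Prkag2-p.R299Q and 47.2% in WT had a C3 UMI, against 13.5% and 9.37% of macrophage-like cells; without thinning it was 88.9% and 64.1%, and 26.0% and 13.8%. C3 was 1.18 to 1.73 times WT in the other 7 classes. In cardiomyocyte-like cells, at 1.44 times, keeping doublets gave 2.39 times. With doublets kept, a cardiomyocyte-like cluster had C3, Igfbp6 and Rarres2 among its leading genes, so the class differed in its cells. The part of this in the ratio was not tested. In cluster 5, which held 529 and 784 of the mesothelial-like cells, C3 was at 3.40 times.

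MHC class I genes were higher in 11 of 16 measured members, with a median of 0.64. H2-K1 was at 531 CPM against 304, 1.75 times (1.56 to 1.95), B2m, its light chain, at 249 against 136 and H2-D1 at 266 against 164, the last at 1.46 times with doublets kept. In the 7 other classes the median of this list ran from -0.45 to 0.19. The interferon list had 7 of 21 higher, among them Isg15 (32 and 5 UMIs) and Irf7 (23 and 11 UMIs), and a median of 0.33. The secreted proteins Igfbp6 and Rarres2 were at 585 CPM against 228, 2.57 times, and at 1084 against 454, 2.39 times. Genes known as markers of mesothelium did not move as 1 block: Msln was at 631 against 326, 1.93 times, and Upk3b at 543 against 355, 1.53 times (1.47 with doublets removed only at their expected rate), while Wt1 and Muc16 were at 0.937 and 1.06 times.

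The highest ratio in mesothelial-like cells was that of Rspo2 (ENSMUSG00000051920, chr15:43020794-43170826, minus strand), a secreted enhancer of Wnt signalling, at 66.1 CPM (122 UMIs) against 6.23 (10 UMIs), 10.6 times (5.57 to 22.7), or 6.33 times with 5 CPM added to each level. Fabp5, a fatty acid binding protein, was at 237 against 77.3 CPM, 3.07 times, the lysosomal protease Ctsl at 158 against 50.5, 3.13 times, Tmem176a at 3.44 times, Tmem132d at 3.21 times and Itm2a at 3.06 times. Muscle genes among the lower ones were Xirp2 at 0.366, Hrc at 0.383, Flnc at 0.385 and Tcap at 0.477 times. Of 23 measured members of the sarcomere list 13 were lower and 1 higher, and the sarcomere genes summed to 6192 CPM against 9803 in these cells, 0.632 times. Dok6, an adaptor protein, was at 0.479 times and Dusp1 at 0.418 times.

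**Figure D4:**
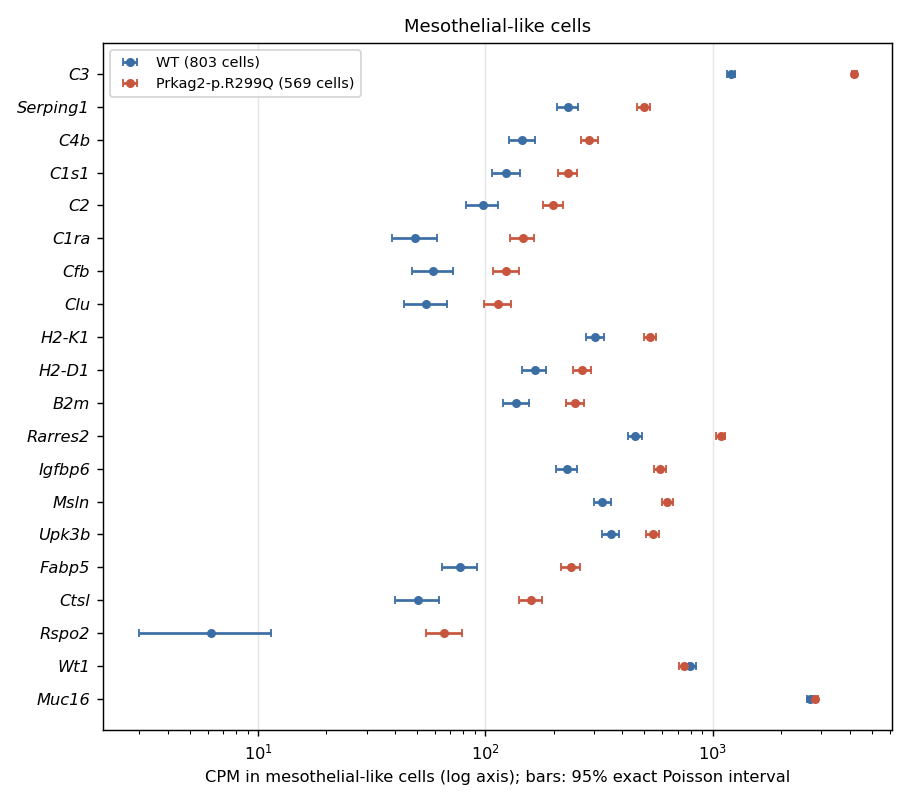
Levels in mesothelial-like cells (x axis, CPM, log scale) of complement, MHC class I, mesothelial and other named genes in each library; bars are exact Poisson 95% intervals. C3 stands at 4190 CPM against 1202, Rspo2 at 66.1 against 6.23, and Wt1 and Muc16 are close in both libraries.

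In fibroblast-like cells, 338 of 10461 genes (3.23%) were higher by 1.5-fold or more and 650 (6.21%) lower. Lists with many members on the lower side were those of metal binding and acute phase proteins, of fatty acids and of muscle. The sarcomere list had 19 of 22 measured members lower, with a median of -0.87 and a sum of 6004 CPM against 11248. Fatty acid oxidation had 15 of 26 lower (median -0.63), the nuclear-encoded respiratory chain 20 of 51 (-0.50) and endothelial lipid handling 6 of 9 (-0.92). The lower members include Fabp3, used here as a cardiomyocyte marker, and Cd36, Fabp4 and Gpihbp1, used here as endothelial markers. The part of RNA from other cells in these values was not tested. Cluster 4 differed: 4 of 22 sarcomere, 2 of 26 fatty acid and 3 of 51 respiratory chain members were lower there, with medians of -0.12, -0.18 and 0.01. In clusters 1, 10 and 11 the respiratory chain medians were -0.36, -0.48 and -0.34, and those of fatty acid oxidation -0.52, -0.53 and -0.47. The genes of the size rule that were higher had ratios above 1 in each of clusters 1, 4, 10 and 11. Islr, a secreted leucine-rich repeat protein of mesenchymal cells, was at 52.6 CPM against 18.6, 2.83 times (2.30 to 3.49), and at 2.93 times in cluster 1 and 2.26 times in cluster 4. Clvs1 was at 2.39 times, Hunk at 2.40, Inmt, a methyltransferase, at 2.30, and the potassium channel Kcnk2 at 2.21 times (1.99 to 2.45).

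Serpina3n, a secreted protease inhibitor, was at 18.6 CPM against 61.6, 0.302 times (0.242 to 0.373), and at 0.233 to 0.393 times across the 4 clusters. The immediate early gene Egr1 was at 32.3 against 104 CPM, 0.311 times, and ranged from 0.142 to 0.550 over the clusters. Junb was at 0.413 times and Mt2 at 0.188 times, or 0.142 to 0.463 times across the clusters. The metallothionein and acute phase list had 5 of 8 measured members lower, with a median of -1.16, and the immediate early list 8 of 24 lower, with a median of -0.45. The latter differed by cluster: in cluster 4 it had 5 members higher, 6 lower and a median of 0.17, and in clusters 1, 10 and 11 medians of -0.38, -0.50 and -0.27. Among muscle genes Hrc was at 0.358, Dsp at 0.387, Pgam2 at 0.402 and Xirp2 at 0.424 times.

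Matrix genes differed by cluster. Postn, periostin, was at 107 CPM against 61.9 in the class, 1.73 times (1.528 to 1.956), and at 1.21 times (1.04 to 1.41) in cluster 1, 2.86 times in cluster 4, 2.36 times in cluster 11 and 0.706 times (0.244 to 1.84) in cluster 10. Col1a1 was at 1.48, 1.23, 1.75 and 1.02 times in clusters 1, 4, 11 and 10, and Col3a1 at 1.38, 1.13, 1.68 and 0.873 times. The collagen list had 3 of 19 measured members higher (Col14a1, Col4a3 and Col4a4), 0 lower and a median of 0.28. Col14a1 was near the threshold, at 1.51 times in the class and 1.303 times in cluster 1.

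The metallothioneins were lower in most classes but not in mesothelial-like cells. Mt1, a metallothionein, which binds zinc and copper, was at 0.275 to 0.726 times WT in 7 classes and at 1.09 times in mesothelial-like cells (90.4 against 82.9 CPM). Mt2 was at 0.445 times in cardiomyocyte-like cells (7.62 against 17.1 CPM) and at 2.34 times in mesothelial-like cells (33.6 against 14.3 CPM, on 62 and 23 UMIs). In the whole heart Mt1 was at 62.0 CPM against 113 and 66.2 in Myh6-R404Q, and Mt2 at 9.02 against 25.8 and 11.3, so WT was the highest of the 3 libraries. The promoters of this pair, which lie side by side on chromosome 8, are shown because both genes were lower in the whole heart; both sequences are from RefSeq on GRCm38.p6, plus strand, Mt1 at chr8:94178839-94179138 and Mt2 at chr8:94172368-94172667. Capitals mark matches on either strand to TGCACNC and TGCGCNC, the core of the metal response element.
Mt1 promoter: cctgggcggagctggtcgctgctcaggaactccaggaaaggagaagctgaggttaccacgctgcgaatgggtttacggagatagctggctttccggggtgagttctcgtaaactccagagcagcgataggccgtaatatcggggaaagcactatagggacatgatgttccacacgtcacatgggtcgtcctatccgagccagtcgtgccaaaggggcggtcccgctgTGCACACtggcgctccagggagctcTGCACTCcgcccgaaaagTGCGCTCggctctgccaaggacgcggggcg
Mt2 promoter: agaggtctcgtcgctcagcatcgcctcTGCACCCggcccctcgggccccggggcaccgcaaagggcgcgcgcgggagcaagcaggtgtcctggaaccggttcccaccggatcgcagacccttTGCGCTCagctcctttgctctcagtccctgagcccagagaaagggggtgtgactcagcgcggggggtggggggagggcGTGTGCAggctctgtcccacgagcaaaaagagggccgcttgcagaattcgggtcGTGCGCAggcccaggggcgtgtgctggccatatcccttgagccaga
Mt1 holds 2 matches to TGCACNC and 1 to TGCGCNC, and Mt2 holds 2 of each, with no overlap; 12.6% and 15.4% of promoters hold at least 1.

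Some chaperones were lower as well. Hspa8, the constitutive HSP70, was at 163 CPM against 248 in the whole heart, 0.659 times (0.689 without barcodes under 1000 UMIs and 0.676 with the WT makeup, both short of 1.5-fold), and at 0.557 to 0.777 times in 7 classes and 0.985 times in mesothelial-like cells. Hsph1, a co-chaperone, was at 44.6 against 76.5 CPM and at 0.430 to 0.765 times in all 8 classes. In the whole heart the heat shock list had 3 of 22 measured members lower, Hspa8, Hsph1 and Hsp90aa1, 0 higher and a median of -0.35. In mesothelial-like cells 6 of 24 were lower, 1 higher (Hspb1) and the median was -0.17, and in the 7 other classes 3 to 10 members were lower. Of all measured genes, 7.04% were lower in mesothelial-like cells and 3.9% to 16.3% in the 7 other classes. In the whole heart the list summed to 1832 CPM in Prkag2-p.R299Q, 2343 in WT and 1843 in Myh6-R404Q. Immediate early genes summed to 666, 869 and 703 CPM, so here too WT stood above both mutant libraries. With 1 library each, handling of a heart before capture and genotype cannot be told apart.

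Clock genes were examined because hearts taken at different hours differ in them. In the whole heart Arntl, of the positive arm, was at 17.5 CPM against 28.3, 0.619 times (0.676 with 5 CPM added), and Dbp and Per3, which peak in another phase, were at 1.41 and 1.36 times. Per1 and Nr1d1 were at 1.08 and 1.09 times. Of 19 measured members of the clock list 2 were higher (Ciart and Bhlhe41) and 1, Arntl, lower. Classes differed: in endocardial-like cells 8 of 17 were higher, Arntl and Dbp both among them, and 1, Clock, was lower. Of all measured genes 12.5% were higher and 16.3% lower in that class, against 2.01% and 2.36% in the whole heart. The time at which hearts were taken is not given in the sources used here.

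Across the 8 classes, 11 genes were at least 1.5 times lower in 6 or more classes and 0 were higher, out of 2751 with enough signal in enough classes. They were Mt1, Lpl, Hrc, Got1, Cat, Dynll2, Mb, Flnc, Pln, Ndrg2 and Hspa4l. Several are muscle genes (Hrc, Mb, Flnc, Pln) whose ratio was 0.844 to 1.14 in cardiomyocyte-like cells, and their lower levels elsewhere stand beside lower sarcomere sums, whose part in them was not tested. The summed sarcomere level was 0.523 to 0.836 times WT in 6 of the 7 classes other than cardiomyocyte-like and 1.04 times in endothelial-like cells. Lpl, lipoprotein lipase, was lower in cardiomyocyte-like cells too, at 670 CPM against 881, 0.761 times, and Cat, catalase, at 0.739 times. Got1 was lower in 7 classes and at 0.798 times in cardiomyocyte-like cells.

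**Figure D5:**
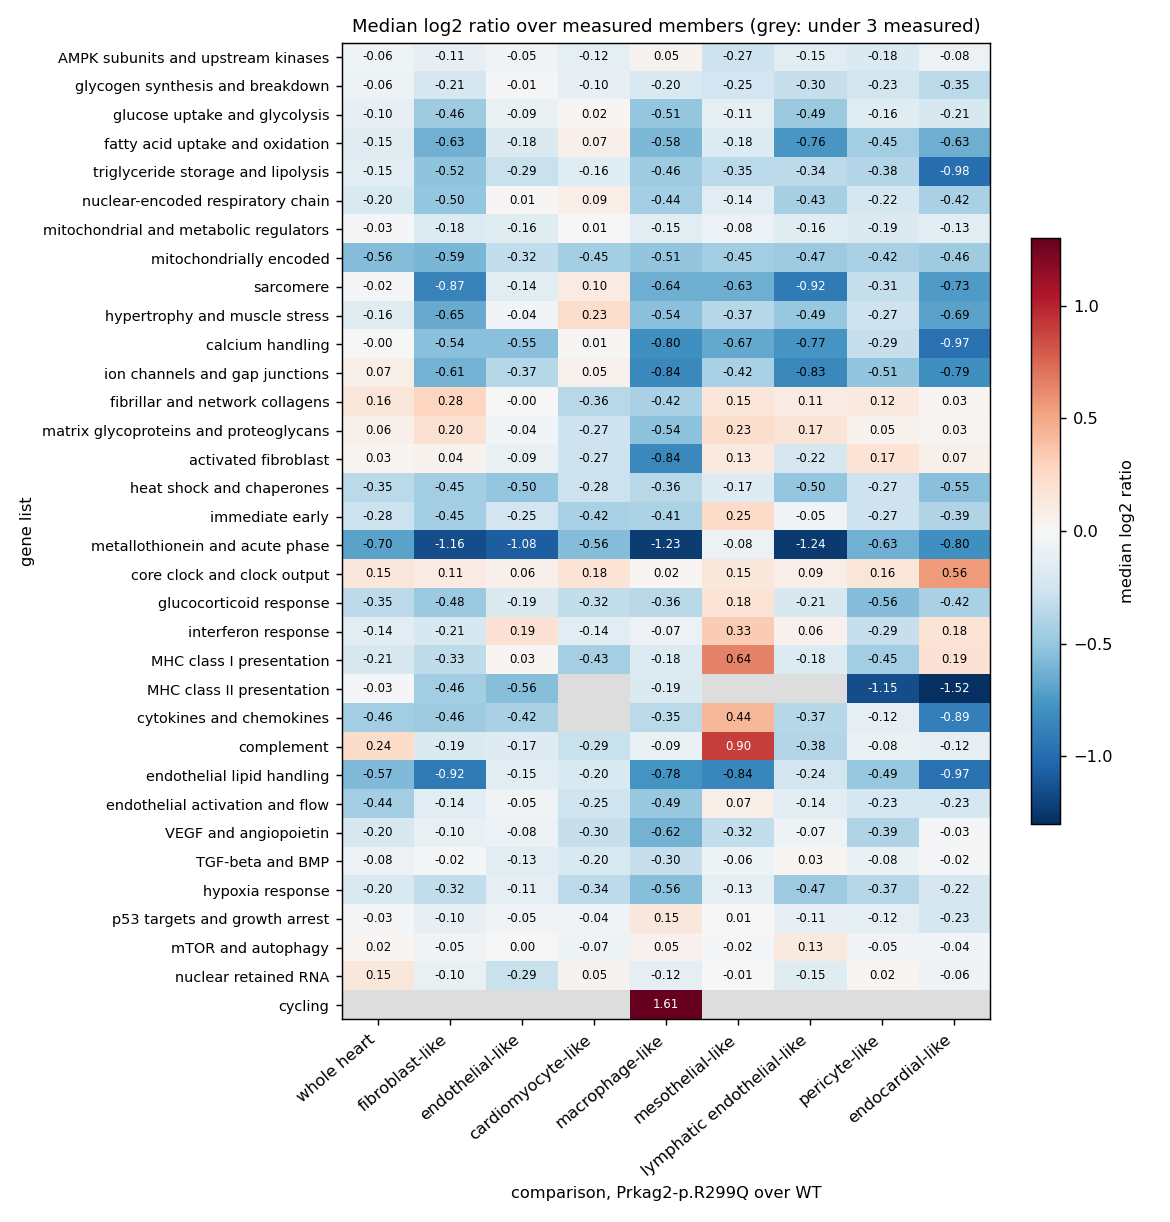
Median log2 ratio of Prkag2-p.R299Q over WT for 34 gene lists (y axis) in the whole heart and 8 classes (x axis); blue is lower and red higher in Prkag2-p.R299Q, and grey marks fewer than 3 measured members. Mesothelial-like cells are red for complement (0.90) and MHC class I (0.64), the metallothionein list is blue in the other 7 classes (-0.56 to -1.24), and the sarcomere list is bluest in lymphatic endothelial-like (-0.92) and fibroblast-like cells (-0.87).

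Endothelial-like cells had 539 of 10220 genes (5.27%) higher by 1.5-fold or more and 634 (6.2%) lower. The VEGF and angiopoietin list had 2 of 16 measured members higher (Pgf and Nrp2), 1 lower (Angpt1) and a median of -0.08. Kit, a receptor tyrosine kinase, was at 52.5 CPM against 21.9, 2.40 times (1.78 to 3.24), Aplnr, the apelin receptor, at 82.1 against 37.8, 2.17 times (1.72 to 2.74), and its ligand Apln at 13.1 against 3.73, on 24 and 15 UMIs. Ephb1 was at 2.19 times, Rad51b at 2.20 and Alpk1 at 2.01. Nppa was at 95.2 against 26.4 CPM in these cells, which hold muscle RNA at sarcomere sums of 25905 and 24924 CPM. The growth arrest gene Cdkn1a was at 18.1 against 55.2 CPM, 0.327 times (0.220 to 0.473), Vwf at 0.552 times (0.349 in the largest cluster, 0), Hsph1 at 0.430, Hspb6 at 0.470 and Mt1 at 0.490.

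Clusters 0 (led by Mcf2l and Btnl9) and 6 (led by Vegfc and Vwf) gave 1.98 and 2.43 times for Aplnr, and 2.40 and 1.03 times (0.320 to 2.89) for Kit. Specc1 (0.292 times in the class) was at 0.527 times in cluster 0 and 0.393 times in cluster 13, which held 16 and 201 of its 36 and 271 UMIs. Fbxo40 and Vldlr were at 0.412 and 0.461 times. Of 11 measured members of the endothelial lipid handling list 1, Fabp5, was higher, at 170.2 CPM against 113, 1.505 times (1.37 in cluster 0), and 0 were lower: Fabp4 was at 1.19 times, Gpihbp1, which holds lipoprotein lipase on the vessel wall, at 1.24, Cd36 at 0.821 and Lpl at 0.728. The whole heart median of the list, -0.57 with 5 of 11 lower, was -0.15 within the class.

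Macrophage-like cells had 711 of 10449 genes (6.8%) higher by 1.5-fold or more and 1225 (11.7%) lower. Among genes of cell division Kif23 was at 90.5 CPM against 29.0, 3.12 times (2.33 to 4.21). It was the 1 member of the cycling list at 10 CPM or more in both libraries. Another 4 of the 15 listed, Top2a (30.2 CPM against 6.59, on 57 and 15 UMIs), Mki67 (20.6 against 9.67), Cenpf and Kif11, reached 10 CPM in Prkag2-p.R299Q alone, so their place among the measured genes rests on that library, and 10 were not measured. Diaph3, a formin of the dividing cell's cortex, was at 2.45 times. Kctd16, Slc7a15 and Egfros were at 2.56, 2.39 and 2.19 times. Lipid genes were lower: Lpl at 274 against 677 CPM, 0.405 times (0.365 to 0.447), Cd36 at 0.474 times and Gpam, which starts triglyceride synthesis, at 0.222 times (0.357 with doublets kept). Lpl and Cd36 are also abundant in cardiomyocyte-like cells (881 and 1249 CPM in WT), and sarcomere RNA summed to 0.661 times WT in macrophage-like cells; its part in these values was not tested. Cd38, an NAD-consuming enzyme, was at 0.423 times, Ahr, a receptor for aromatic ligands, at 0.424, Bnip3 at 0.296 (0.487 with doublets kept), Ndrg2 at 0.397 and Mt1 at 0.407.

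The smaller classes carry wider intervals and larger shares of genes past 1.5-fold. Lymphatic endothelial-like cells had 1204 of 10671 genes (11.3%) higher and 1655 (15.5%) lower. Serpina3n was at 18.9 CPM against 124, 0.153 times (0.0717 to 0.289), Hgf, a growth factor, at 20.8 against 111, 0.188 times (0.425 with doublets kept), and Cmah, which makes a form of sialic acid, at 148 against 720, 0.205 times (0.160 to 0.259), on 78 and 859 UMIs. Apod, Ctps, Slc39a14 and Cpt1b were at 0.222 to 0.260 times. Prss23, a serine protease, was at 2.85 times, Car10 at 2.58, Cep164 at 2.56, Anxa1 at 2.48, Zfp182 at 2.29, Cyp4b1 at 2.15 and Col5a2 at 2.08. The identity genes Prox1, Flt4 and Reln were at 1049, 846 and 2817 CPM against 914, 703 and 2339, and Ccl21a, which was lower in the whole heart, was at 1123 against 747 CPM within the class.

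Pericyte-like cells had 1149 of 10386 genes (11.1%) higher and 1391 (13.4%) lower. Clstn2 was at 408 CPM against 182, 2.24 times (1.86 to 2.71), and Sepsecs at 2.61 times (1.55 to 4.50). Ccn2, a matrix-associated growth factor, was at 24.0 against 68.7 CPM, 0.349 times (0.193 to 0.599), Cav1, the caveolar coat protein, at 69.2 against 177, 0.390 times, and Mt1 at 0.336. Eef1a2, Vldlr, Hspb6, Acss1 and Fam171a1 were at 0.312 to 0.386 times. These pericyte-like values depended on doublets: removal at the expected rate alone put Cav1 at 0.850, Fam171a1 at 0.688 and Sepsecs at 1.65 times.

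Endocardial-like cells had 1306 of 10429 genes (12.5%) higher and 1697 (16.3%) lower. Apoe was at 394 CPM against 131, 3.00 times (2.39 to 3.79), the clock output factor Hlf at 220 against 84.5, 2.60 times (1.93 to 3.51), Ctla2a at 2.49 times, Crkl at 2.53, Pced1b at 2.28 and Fabp5 at 2.04. The potassium channel Kcnc2 was at 19.96 against 137 CPM, 0.146 times (0.0710 to 0.270), on 11 and 123 UMIs, Inhba, an activin chain, at 0.251 times and Shisa9 at 0.208 (0.541 with doublets kept). Clasrp, Cpt1b, Got1, Pgam2 and Atp5k were at 0.248 to 0.358 times, beside a sarcomere sum of 0.561 times WT.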

How the data were processed

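Single-cell 3′ libraries of heart cells, 1 per genotype, were used. Per the submitters' processing notes, reads were processed with Cell Ranger 7.0.1 on mm10. The deposited matrices hold raw UMI counts per gene and barcode for 32285 features, and the files list no barcode below 500 UMIs.

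Counts were summed over all barcodes of a library, or over the cells of a class, and scaled to 1e+06 UMIs (CPM). Ratios carry exact conditional binomial intervals, levels exact Poisson intervals, shares Clopper-Pearson intervals and ratios of shares log-normal intervals, all at 95%. Scrublet doublet calls in each library (expected rate 0.8% per 1000 barcodes) were removed before classes were compared. Clustering used cells of 500 UMIs or more, 300 genes or more and no more than 20% mitochondrial UMIs, with scanpy 1.11.5 (2000 variable genes, 30 principal components, 20 neighbours, leiden resolution 0.8, no correction between libraries). Comparisons covered the 8 of 13 classes that held 200 cells or more on both sides. A gene was measured at 10 CPM or more in either library.

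Named genes had at least 50 CPM in either library, a ratio of 2 or more either way and an interval beyond 1.5-fold; within a class, genes below 1/5 of their level in the richest class were passed over. The most extreme 8 each way are named per class, except a few genes not reported here, with a fixed list of AMPK, glycogen, muscle and stress genes and the abundant or 2-fold members of the 34 gene lists. Other genes named, such as Phka1, Tcap and the mesothelial markers, were chosen after their values were seen. The members and lists were chosen with earlier results of these data known. edgeR 4.0.16 supplied TMM factors for an alternative scaling. The counting and interval code was tested on simulated data.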

Additional observations from a re-analysis of the deposited data

How the results depend on the processing

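Counts of genes at 1.5-fold or more depended on the floor and on depth. In the whole heart, 217 higher and 254 lower became 116 and 155 with 5 CPM added to each level, 60 and 93 at 50 CPM or more, and 4013 and 3288 with no floor. Thinning each cell to 1000 UMIs gave 335 higher, and the WT makeup 129 lower. With 5 CPM added there were 150 higher genes in fibroblast-like and 370 in macrophage-like cells, 260 higher and 386 lower in endothelial-like, 130 and 164 in cardiomyocyte-like and 614 and 462 in mesothelial-like cells. At 50 CPM or more, higher genes were 91 in fibroblast-like, 80 in endothelial-like, 64 in cardiomyocyte-like, 138 in macrophage-like, 263 in mesothelial-like, 247 in lymphatic endothelial-like, 200 in pericyte-like and 266 in endocardial-like cells, and lower genes, in the same order of classes, 208, 139, 59, 292, 120, 354, 276 and 364. With no floor, higher genes were 3465, 3345, 4103, 3357, 4070, 3410, 3274 and 3745 and lower genes 4389, 4578, 4003, 4874, 3711, 5114, 4284 and 4837, again in that order. Thinning, which leaves fewer UMIs per gene, gave 600 higher genes in fibroblast-like, 1224 in macrophage-like, 1965 in lymphatic endothelial-like and 2527 in endocardial-like cells. It gave 993 higher and 1047 lower in endothelial-like, 896 and 970 in cardiomyocyte-like, 1744 and 1662 in mesothelial-like and 2184 and 2132 in pericyte-like cells. Keeping doublets gave 458 higher and 702 lower in macrophage-like cells, and removing them at the expected rate 577 and 155 in cardiomyocyte-like cells and 866 lower in pericyte-like cells.

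Among shares, a floor of 1000 UMIs per barcode gave log2 ratios of 0.10 for fibroblast-like (0.17 without it), -0.31 for endothelial-like (-0.57), 0.33 for mesothelial-like (0.63) and -0.026 for cardiomyocyte-like cells (0.22), the last turning direction. Removing doublets at the expected rate gave 0.33 for cardiomyocyte-like and 0.35 for pericyte-like cells, and keeping them gave 0.46 for mesothelial-like cells. The other 166 values of counts and shares stayed within 1.5 times of the count or inside the interval of the share. For genes named in the text, 2175 alternative ratios lay inside the interval of the reported ratio, 213 outside it, and 2 turned direction: C1qa in mesothelial-like cells (1.14 with doublets kept) and Prkag2 in pericyte-like cells (1.78 with doublets at the expected rate). The median of the MHC class II list in pericyte-like cells turned from -1.15 to 0.67 with doublets at the expected rate. The cause of these changes was not tested.

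The largest cluster of each class taken alone was an alternative chosen after the data were seen. It put the hypertrophy list of cardiomyocyte-like cells at 0.01 instead of 0.23, and Postn in fibroblast-like cells at 1.21 instead of 1.73. No paired analysis was possible because each genotype has 1 library. Depth limits genes with few UMIs, such as Rspo2 in WT or Pdk4 in the small classes.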

Other observations

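Hemoglobin transcripts, which mark red blood cells and which the naming rule leaves out, were higher in Prkag2-p.R299Q. Hbb-bs was at 99.2 CPM against 28.5 in WT, Hba-a1 at 31.8 against 8.60, Hba-a2 at 27.4 against 7.72 and Hbb-bt at 13.9 against 3.41, so all 4 stood in the same direction. They were chosen after their values were seen.

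The mitochondrially encoded genes were not lower by 1 common factor. In the whole heart mt-Nd5 was at 254 CPM against 552 in WT, mt-Atp8 at 73.6 against 162 and mt-Nd4l at 124 against 254. The more abundant mt-Co1 was at 1963 against 2899, mt-Nd1 at 738 against 1106 and mt-Cytb at 751 against 1106.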
